A study of Mus musculus with 49 samples.

Results

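The clustered protocadherins are cell-surface adhesion proteins of the cadherin superfamily, encoded by the Pcdha, Pcdhb and Pcdhg genes, which lie one cluster after another on mouse chromosome 18. They were taken as every row of the deposited expression table whose symbol belongs to the alpha, beta or gamma cluster and whose mean log2 value over the 49 labelled libraries was 2 or more. The rule used the mean over all libraries, so it used no difference between groups. It gave 55 genes of the 24495 in the table, with 11 in the alpha, 22 in the beta and 22 in the gamma cluster. A further 3 rows with matching symbols, Pcdha4, Pcdha6 and Pcdha7, were listed at 0 in every library and were not kept. Just inside the limit was Pcdhb1, at a mean log2 value of 2.76, followed by Pcdha8 at 4.20 and Pcdhgb8 at 4.79.

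Each neuron switches on a small, partly random set of the alpha, beta and gamma genes, and the proteins bind copies of themselves on neighbouring membranes, which lets branches of a neuron recognise and avoid each other. Each variable first exon has its own promoter, chosen with the help of the DNA-binding factor CTCF and the cohesin ring and kept silent elsewhere by DNA methylation and repressive histone marks. The alpha and gamma genes join their variable exon to a shared set of constant exons at the 3′ end of the cluster, and the beta genes are single exons with no constant part. The 5 C-type genes (Pcdhac1, Pcdhac2, Pcdhgc3, Pcdhgc4 and Pcdhgc5) stand at the ends of the alpha and gamma clusters and are used more widely than the randomly chosen genes. In mice, Pcdhac2 is needed for the even spread of serotonergic axons, Pcdhgc3 for dendrite branching and Pcdhgc4 for the survival of interneurons, and Pcdhgc5 is found at inhibitory synapses.

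Poly(A) RNA of mouse frontal cortex was sequenced in 49 libraries, all from mice on a high fat diet. Mice with a conditional human amylin transgene had 4 months of the diet and were injected with tamoxifen, which induces Cre recombination (CreTM, n = 10), or with vehicle (CreVE, n = 10), with brains collected 2 months later. The other groups were mice labelled AKO, for amylin knockout, after 4 months (4MHFA, n = 10), WT mice after 4 months (4MHFW, n = 10) and WT mice after 2 months (2MHF, n = 9). Amylin is the pancreatic peptide hormone encoded by Iapp. The labels give no sex, strain, age, litter or batch, and neither the promoter that drives Cre nor the one that drives the transgene. They do not say that each library is a separate animal, and p-values therefore cover only the spread among libraries, which may be technical. All levels below are log2(normalised reads + 1) unless another scale is named, and a difference is the mean of the first group minus the mean of the second on that scale.

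Depth was 29.2 to 75.6 M recovered reads per library, with a median of 42.0 M. Iapp, the gene named by the AKO label, had 36 to 116 reads in each of the 10 4MHFA libraries, 1 read in CreVE and no read in CreTM, 4MHFW or 2MHF. Reads of the targeted gene in that group and not in WT are the reverse of what its label says, for which reason 4MHFA is written below as the libraries labelled AKO, and every direction drawn from it rests on the label as given. Markers of cortical excitatory neurons were present in every group, with 10 of 10 tested, and their mean level was 11.83 to 12.44 in all but 3 libraries. CreVE replicate 3 was at 10.96, CreTM replicate 9 at 10.97 and CreVE replicate 1 at 11.7, the lowest of the 49. The same 3 libraries had mean levels of 10.43 to 11.17 in markers of the olfactory bulb and mucosa, which were not high in these alone: replicates 14 and 15 of the libraries labelled AKO were at 10.47 and 10.61. Results that rest on them are given with and without them.

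The clusters span, in GRCm38 coordinates (RefSeq), positions 36930285 to 37188897 (alpha), 37264998 to 37521419 (beta) and 37661775 to 37841873 (gamma) of chromosome 18. The alpha end is that of Pcdha6, which was not kept. In GENCODE M21 the genes lie on the plus strand, with no strand taken for Pcdha10. Over the 49 libraries the gamma genes made up 64.3% ± 1.19 of the summed normalised reads of the 3 clusters, the beta genes 21.95% ± 1.75 and the alpha genes 13.7% ± 1.34 (SD, n = 49). A few genes carried most of these sums. Pcdhac2 alone held 48.8% ± 3.07 of the alpha reads, Pcdhgc5 28.4% ± 3.25 and Pcdhgc3 18.4% ± 1.87 of the gamma reads. Together the C-type genes made up 53.2% ± 3.21 of the alpha and 50.1% ± 1.61 of the gamma sum. No gene held such a part of the beta sum, in which Pcdhb9 led with 15.5% ± 1.40, followed by Pcdhb17 with 9.66% ± 0.98, Pcdhb20 with 8.56% ± 0.90 and Pcdhb12 with 7.73% ± 0.88.

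**Figure D1:**
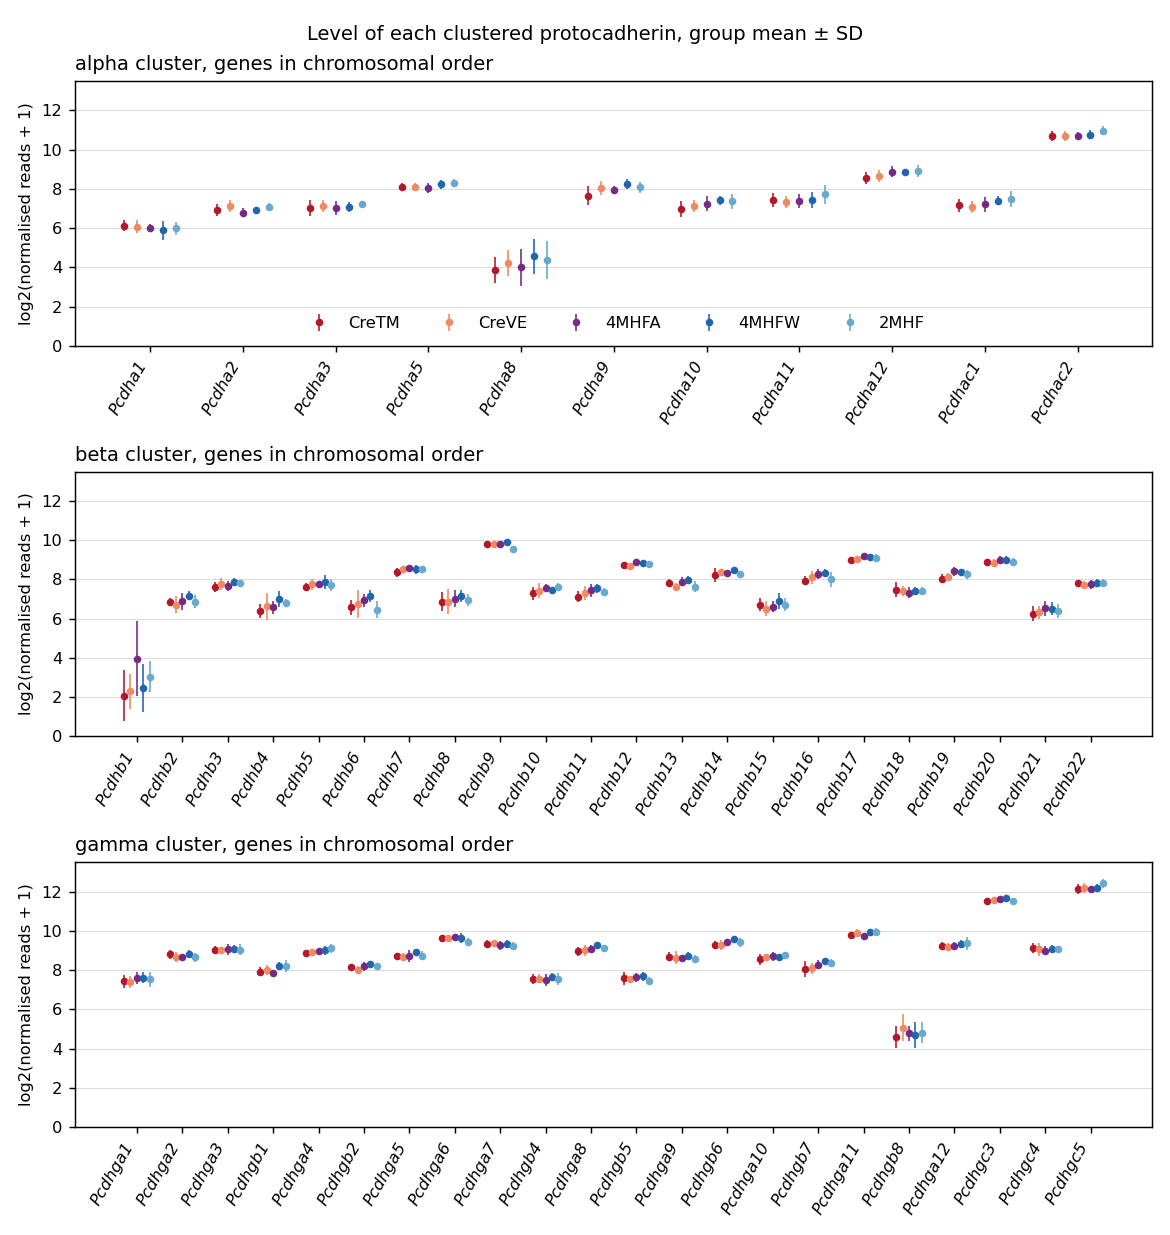
Level of each of the 55 genes by group, as mean ± SD of log2(normalised reads + 1), with genes in chromosomal order in each panel. The C-type genes Pcdhac2, Pcdhgc3 and Pcdhgc5 stand above the rest of their clusters, Pcdha8, Pcdhb1 and Pcdhgb8 stand far below, and the 5 groups lie close together for most genes.

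Levels were compared between genes per kilobase of exon that the gene shares with no other gene (GENCODE M21). On that scale Pcdhgc5 had 1042 normalised reads per kilobase, Pcdhgc3 916 and Pcdhac2 582. Next came Pcdhga11 with 357, Pcdhga4 with 322, Pcdhga6 with 299 and Pcdhb9 with 290 normalised reads per kilobase, so a single beta gene stood among the 7 highest. The place of Pcdhga4 is uncertain. Only 1570 of its exon bases (33.2%) are shared with no other gene, against 2637 for Pcdhga11 and 2614 for Pcdhga6. Pcdhgb6 followed with 265 normalised reads per kilobase. Pcdhb1 had 4.57, Pcdha8 8.37 and Pcdhgb8 11.6 normalised reads per kilobase. The other 2 C-type genes were not among the leaders, with 156 per kilobase for Pcdhgc4 and 61.5 for Pcdhac1. The shares and the values per kilobase of the alpha and gamma genes depend on how reads in the constant exons were assigned. The sources used here do not say how this was done. Pcdha8 had a median of 17 reads and Pcdhac2 of 1745 although they share those exons, so the shared reads were not counted for every gene. The beta genes are close copies of each other, and the split of reads between near-identical stretches is uncertain.

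Spread between libraries differed by cluster and gene. The SD between libraries of a group had a median of 0.33 over the alpha, 0.27 over the beta and 0.22 over the gamma genes. That SD also depends on the number of reads. It was therefore divided by the SD that counting alone gives at the median reads of the gene. The median ratio was 2.87 over the alpha, 2.54 over the beta and 3.24 over the gamma genes, which is another order. The largest ratios were in the genes with the most reads, Pcdhgc5 (10.5), Pcdhac2 (6.97) and Pcdhgc3 (5.06). The ratio therefore depends on reads too, and neither order is free of depth. Pcdhb1 had the largest spread, with an SD of 1.29, but at a median of 6 reads its ratio was 2.20. It is the first gene of the beta cluster.

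Pcdhb1 had few reads in all but a pair of libraries. Levels in the libraries labelled AKO were 1.11 at the lowest, 3.76 at the median and 7.45 at the highest, against 0, 2.65 and 4.20 in 4MHFW. In CreTM they were 0, 2.55 and 3.46, in CreVE 0.84, 2.43 and 3.67, and in 2MHF 1.94, 3.02 and 4.40. The highest values were 7.45 (256 reads) in replicate 14 and 6.42 (65 reads) in replicate 19 of the libraries labelled AKO, and no other library of the 47 had more than 40 reads. These 2 libraries were also the highest of the 49 in Cyp2g1, a cytochrome P450 of olfactory mucosa, at 12.30 and 11.34, against at most 8.98 elsewhere. The part of olfactory tissue in the Pcdhb1 values was not tested. The gene was too low to enter any comparison of 2 groups, so 54 of the 55 genes were tested in each of those.

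Sums of the clusters are given as a description, without a test. The alpha sum was 3350 ± 453 normalised reads in CreTM, 3449 ± 393 in CreVE, 3485 ± 433 in the libraries labelled AKO, 3700 ± 343 in 4MHFW and 4056 ± 523 in 2MHF (SD). The beta sum ran in another order, at 5397 ± 296 in CreTM, 5604 ± 610 in CreVE, 5971 ± 510 in the libraries labelled AKO, 6146 ± 348 in 4MHFW and 5529 ± 339 in 2MHF. For gamma the values were 16218 ± 622 in CreTM, 16545 ± 866 in CreVE, 16402 ± 1391 in the libraries labelled AKO, 17525 ± 932 in 4MHFW and 17530 ± 1655 in 2MHF. The groups overlapped in all 3 sums, although for beta only 1 of the 10 4MHFW libraries, at 5531, was below the highest CreTM library, at 5765. The 4MHFW mean was above the CreTM, CreVE and AKO-labelled means in each cluster, while 2MHF had the highest alpha mean and a beta mean below 4MHFW. Single libraries stood low, with an alpha sum of 2759 in 2MHF replicate 37 against a group median of 4143, and of 2378 in CreTM replicate 9 against 3437. In bulk tissue, fewer cells of a type and less RNA per cell cannot be told apart.

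**Figure D2:**
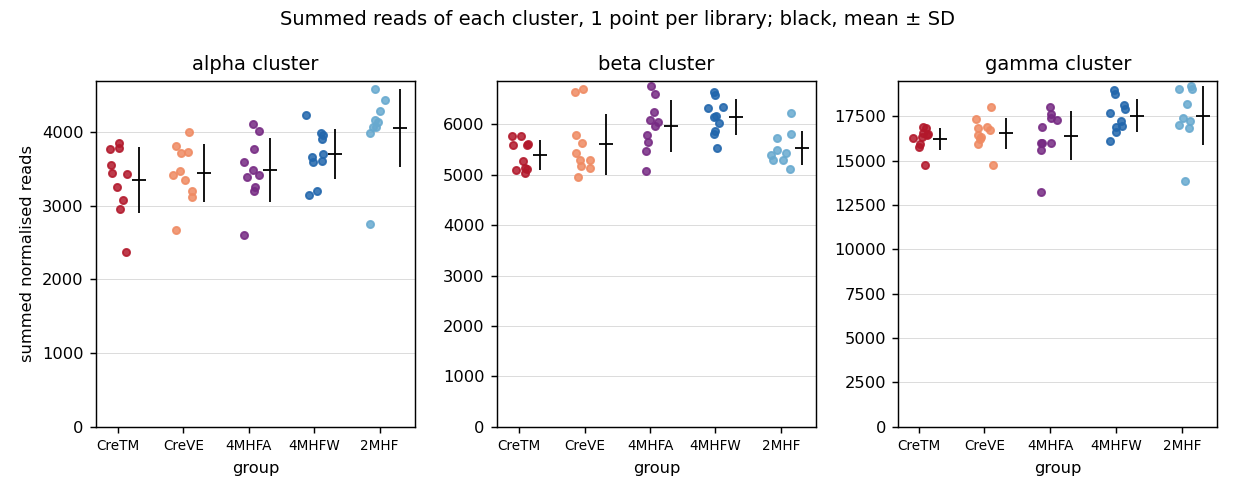
Summed normalised reads of the alpha, beta and gamma clusters in each of the 49 libraries, by group, with mean ± SD in black. Alpha sums average 3350 to 3700 in the 4-month groups and 4056 in 2MHF, beta sums average 6146 in 4MHFW and 5397 to 5971 in the other groups, and the groups overlap in every panel.

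The order of group means was uneven across genes. Of the 55 genes, 29 had their highest mean in 4MHFW, 12 in 2MHF, 7 in the libraries labelled AKO, 4 in CreTM and 3 in CreVE. The lowest mean was in CreTM for 23 genes, in CreVE for 14 and in 4MHFW for 1. In the beta cluster 14 of 22 genes were highest in 4MHFW and 13 lowest in CreTM, whereas 6 of 11 alpha genes were highest in 2MHF. A single test of any difference among the 5 groups, limma's F test with Benjamini-Hochberg adjustment over all genes tested, called 12 of the 55 genes, beside 23.1% of all genes tested. That share of members, 12 of 55, is near the background. The genes called were Pcdha9 in the alpha cluster, Pcdhb6, Pcdhb9, Pcdhb13, Pcdhb17 and Pcdhb19 in the beta cluster, and Pcdhgb1, Pcdhgb2, Pcdhga8, Pcdhgb6, Pcdhgb7 and Pcdhga11 in the gamma cluster. Pcdhb9 had the smallest adjusted p, 8.2e-05. None of the 5 C-type genes passed, the nearest being Pcdhgc5 at an adjusted p of 0.079. Without the 3 libraries that stand apart, 19 of 55 genes passed, and without 4MHFW replicate 14, 21 or 25 it was 7. The share of all genes called in these refits is not given here, so the change in count is not read as particular to the members.

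Most genes called between groups were lower in the transgenic mice that received tamoxifen than in WT mice after 4 months. In CreTM over 4MHFW 11 of 54 genes fell and 0 rose (limma, adjusted p under 0.05), beside 6.87% of all genes tested called lower, 6.18% called higher and 13% called in either direction. These were 20.4% of the members tested. They came from each cluster, with 3 alpha genes (Pcdha9, Pcdha10, Pcdha12), 5 beta genes (Pcdhb4, Pcdhb6, Pcdhb11, Pcdhb16, Pcdhb19) and 3 gamma genes (Pcdhga8, Pcdhgb1, Pcdhgb6). All are variable genes of the randomly chosen kind. The C-type genes are only 5 of the 54 tested, so their absence among 11 calls says little. Of these, Pcdhgc3 passed, and was lower, when CreTM replicate 9 was left out (-0.16, limma adjusted p = 0.034). The differences were below 0 for 49 of 54 genes, with a median of -0.16 beside -0.0033 over all genes tested, of which 49.1% were above 0. The 2 groups differ in the transgene, in the injection and in tamoxifen, and these cannot be told apart.

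Pcdhb16 had the smallest p in that comparison. Its levels were 7.58 at the lowest, 8.01 at the median and 8.18 at the highest in CreTM, against 7.97, 8.37 and 8.59 in 4MHFW. All 10 CreTM libraries lay below the 4MHFW median and 4 lay below every 4MHFW library. The difference was -0.39 (SE 0.09, adjusted p = 0.00996), 1.31-fold lower. Pcdhga8 was at 8.59, 8.92 and 9.29 in CreTM, against 9.05, 9.32 and 9.51 in 4MHFW, a difference of -0.33 (SE 0.08, adjusted p = 0.013). Pcdhgb6 was at 8.84, 9.35 and 9.48 in CreTM, against 9.31, 9.59 and 9.77 in 4MHFW, a difference of -0.28 (SE 0.07, adjusted p = 0.013). For both gamma genes every CreTM library was under the 4MHFW median, with 6 and 5 of 10 under the whole 4MHFW range.

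Among the genes that passed, Pcdha9, Pcdhb4 and Pcdhb6 fell the most. Pcdha9 was at 6.53, 7.71 and 8.22 in CreTM (lowest, median, highest; 123 to 414 reads), against 7.83, 8.25 and 8.58 in 4MHFW (238 to 359 reads). It fell by 0.62 (SE 0.16, adjusted p = 0.015), 1.54-fold lower, with 6 of 10 CreTM libraries under every 4MHFW library. Pcdhb4 was at 6.06, 6.24 and 7.02 in CreTM, against 6.01, 7.06 and 7.47 in 4MHFW, and fell by 0.61 (SE 0.16, adjusted p = 0.017). Pcdhb6 was at 6.03, 6.49 and 7.29 in CreTM, against 6.77, 7.13 and 7.52 in 4MHFW, and fell by 0.58 (SE 0.15, adjusted p = 0.015). The ranges overlapped for all 3 genes, and Pcdhb4 was the least separated, its lowest 4MHFW library being below the lowest of CreTM. The other 5 genes fell by 0.30 to 0.45, with adjusted p of 0.015 for Pcdhb19, 0.023 for Pcdhb11, 0.037 for Pcdha10, 0.042 for Pcdhgb1 and 0.0496 for Pcdha12. The last 3 lost the call when 1 of 11, 11 or 16 single libraries was left out, whereas the other 8 genes kept it in all 20. With 4MHFW replicates 11 to 15 alone 4 genes passed, among them Pcdha9, Pcdhb4 and Pcdhb16 of the 11, and with replicates 21 to 25 alone 2 passed, Pcdha10 and Pcdhga8, so none of the 11 passed against both sets. These sets hold fewer samples, and the share of all genes called against each is not given here.

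**Figure D3:**
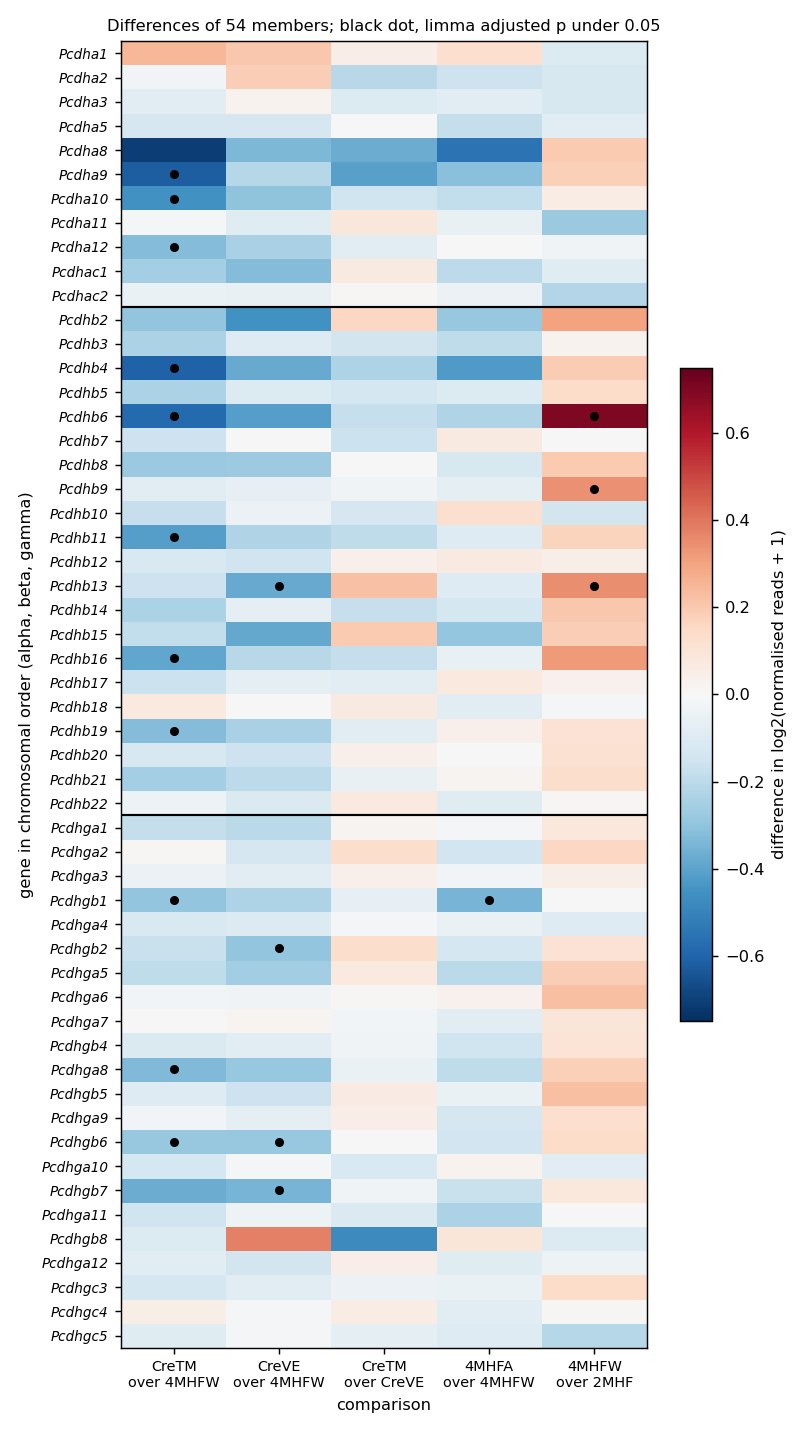
Difference in mean log2(normalised reads + 1) of 54 genes (rows, chromosomal order) in 5 comparisons (columns), with red for higher and blue for lower in the first group of each pair and a black dot where the limma adjusted p is under 0.05. CreTM over 4MHFW holds 11 dots, all blue, CreVE over 4MHFW 4, all blue, CreTM over CreVE none, 4MHFA over 4MHFW 1 and 4MHFW over 2MHF 3, all red and all beta genes.

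Fewer genes passed in the vehicle-treated transgenic mice. In CreVE over 4MHFW 4 of 54 genes fell and 0 rose, beside 3.59% of all genes tested called lower, 2.58% called higher and 6.17% called in either direction. The 4 genes are 7.41% of the members tested, near the share of all genes called in either direction. The genes were Pcdhb13, Pcdhgb2, Pcdhgb6 and Pcdhgb7. The differences were below 0 for 47 of 54 genes, with a median of -0.13 beside -0.00041 over all genes, of which 49.9% were above 0. Pcdhb13 was at 7.31, 7.66 and 7.95 in CreVE (lowest, median, highest), against 7.69, 7.97 and 8.40 in 4MHFW, and fell by 0.38 (SE 0.09, adjusted p = 0.018). Pcdhgb2 was at 7.81, 8.04 and 8.27 in CreVE, against 8.11, 8.32 and 8.60 in 4MHFW, and fell by 0.29 (SE 0.07, adjusted p = 0.022). For both, all 10 CreVE libraries lay under the 4MHFW median.

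Pcdhgb7 was at 7.81, 8.02 and 8.62 in CreVE, against 8.22, 8.47 and 8.67 in 4MHFW, and fell by 0.35 (SE 0.10, adjusted p = 0.039). Pcdhgb6 was at 9.04, 9.23 and 9.82 in CreVE, against 9.31, 9.59 and 9.77 in 4MHFW, and fell by 0.28 (SE 0.08, adjusted p = 0.040). In Pcdhgb7, 8 of 10 CreVE libraries were under every 4MHFW library and the other 2 were above the 4MHFW median. Leaving out single libraries ended the call of Pcdhgb6 for 15 of 20 libraries and of Pcdhgb7 for 13 of 20, and no gene was called against either set of 5 4MHFW libraries. Without CreVE replicates 1 and 3, which stand apart, 10 genes passed, all lower: the same 4 and Pcdhb2, Pcdhb4, Pcdhb6, Pcdhb8, Pcdhb11 and Pcdhb16. Pcdhb6 then fell by 0.69 (SE 0.16, adjusted p = 0.0051) and Pcdhb4 by 0.70 (SE 0.15, adjusted p = 0.0039). The beta sum of those 2 libraries was 6709 (replicate 1) and 6634 (replicate 3) normalised reads, the highest of CreVE, in which the median was 5363. Leaving out CreTM replicate 9 in the same way gave 12 genes in CreTM over 4MHFW, all lower. For both refits the share of all genes called is not given here, so no gain among the members is read from them. Only 1 gene, Pcdhgb6, passed in both comparisons with all libraries, which is 1 of 11 and 1 of 4. The comparisons share the 4MHFW libraries.

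Tamoxifen and vehicle within the transgenic line gave no call. In CreTM over CreVE 0 of 54 genes passed, beside 0% of all genes tested, and limma-voom on recovered reads also called 0. At an unadjusted p under 0.05 there were 2 genes, beside 3.3% of all genes. Pcdha9 was at 6.53, 7.71 and 8.22 in CreTM, against 7.18, 8.08 and 8.5 in CreVE (lowest, median, highest), a difference of -0.41 with a 95% interval of -0.78 to -0.03 (limma p = 0.034, adjusted p = 0.9998). Pcdhb13 was at 7.57, 7.79 and 8.12 in CreTM, against 7.31, 7.66 and 7.95 in CreVE, a difference of 0.22 with an interval of 0.01 to 0.42 (limma p = 0.037, adjusted p = 0.9998). The next by p came Pcdhgb2 at 0.13, Pcdhgb8 at -0.48 and Pcdhb7 at -0.16, none of which passed. The median difference was -0.025, and 33 of 54 genes were below 0, while 49.4% of all genes tested were above 0. A p that misses the threshold does not show that the groups are alike: for Pcdhac2 the interval was -0.23 to 0.25.

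The libraries labelled AKO differed from WT after 4 months in 1 gene. Of 54 genes 1 fell, Pcdhgb1, and 0 rose, beside 0.504% of all genes tested called lower, 0.281% called higher and 0.785% called in either direction. Pcdhgb1 (gene ID 93699) was at 7.61, 7.88 and 8.02 in the libraries labelled AKO (lowest, median, highest; 156 to 452 reads), against 7.99, 8.20 and 8.53 in 4MHFW (199 to 415 reads). It fell by 0.35 (SE 0.07, adjusted p = 0.025), 1.27-fold lower, and 9 of 10 libraries labelled AKO were under every 4MHFW library. The call was lost without 4MHFW replicate 21 and without 4MHFA replicate 8, with adjusted p up to 0.051. No gene was called with all 49 libraries in 1 model, or without 4MHFA replicates 14 and 19. The next by p were Pcdhga11 (-0.24, adjusted p = 0.11), Pcdha9 (-0.31, adjusted p = 0.17), Pcdhga8 (-0.19, adjusted p = 0.21) and Pcdhb4 (-0.42, adjusted p = 0.23), which did not pass. Differences were below 0 for 44 of 54 genes, with a median of -0.09 beside 0.0054 over all genes, of which 52.3% were above 0. Against the same 4MHFW libraries Pcdhgb1 fell by 0.30 in CreTM, and its difference in CreVE was -0.23 (adjusted p = 0.17), which did not pass.

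Between WT mice after 4 and after 2 months of diet the genes called were beta genes, and all were higher after 4 months. In 4MHFW over 2MHF 3 of 54 genes rose, Pcdhb9, Pcdhb6 and Pcdhb13, and 0 fell, beside 4.54% of all genes tested called higher, 4.14% called lower and 8.68% called in either direction. A count of 5.56% is near the background. Time on the diet and age cannot be told apart here. Pcdhb9 (gene ID 93880; positions 37400855 to 37403909 of chromosome 18), the most abundant beta gene, was at 9.73, 9.88 and 10.12 in 4MHFW (lowest, median, highest; 729 to 1125 reads), against 9.37, 9.58 and 9.69 in 2MHF (609 to 1164 reads). Every 4MHFW library lay above every 2MHF library, which held for no other member in this comparison. The share of all genes separated in this way was not counted, so it is not known how common this is. The rise was 0.34 (SE 0.05, adjusted p = 0.0020), 1.27-fold, and it kept its call in each of the 19 fits that left out 1 library. Against 4MHFW replicates 21 to 25 alone it did not pass, at 0.27 (SE 0.06, adjusted p = 0.064), and it passed with replicates 11 to 15 alone, at 0.42 (adjusted p = 0.0064). All libraries of the other 4-month groups were also above the 2MHF median of Pcdhb9, at 9.63, 9.82 and 9.96 in CreTM, 9.65, 9.80 and 10.09 in CreVE and 9.63, 9.83 and 10.02 in the libraries labelled AKO. None of these 3 groups passed against 4MHFW, with differences of -0.08 to -0.06.

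Pcdhb6 had the largest rise. It was at 6.77, 7.13 and 7.52 in 4MHFW, against 5.62, 6.44 and 6.94 in 2MHF, and rose by 0.70 (SE 0.16, adjusted p = 0.012), 1.63-fold, with 7 of 10 4MHFW libraries above every 2MHF library. Pcdhb13 was at 7.69, 7.97 and 8.40 in 4MHFW, against 7.11, 7.63 and 8.22 in 2MHF, and rose by 0.35 (SE 0.11, adjusted p = 0.047), a call that was lost on leaving out any of 16 of the 19 libraries. Against the same 4MHFW libraries, Pcdhb6 fell in CreTM and Pcdhb13 in CreVE, as given above. Over all genes tested 50.9% were above 0. Of the beta genes 18 of 21 were above 0, with a median of 0.14, and of the alpha genes 8 of 11 were below 0, with a median of -0.09. The 2MHF library that stands low in alpha and gamma, replicate 37, bears on this split. Without it 6 genes passed: the same 3 rose, and Pcdha11 (-0.43, adjusted p = 0.038), Pcdhac2 (-0.29, adjusted p = 0.017) and Pcdhgc5 (-0.28, adjusted p = 0.014) fell. With it, Pcdhac2 was -0.22 (adjusted p = 0.13) and Pcdhgc5 -0.21 (adjusted p = 0.13), neither of which passed. How large a share of all genes was called without replicate 37 is not given here.

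**Figure D4:**
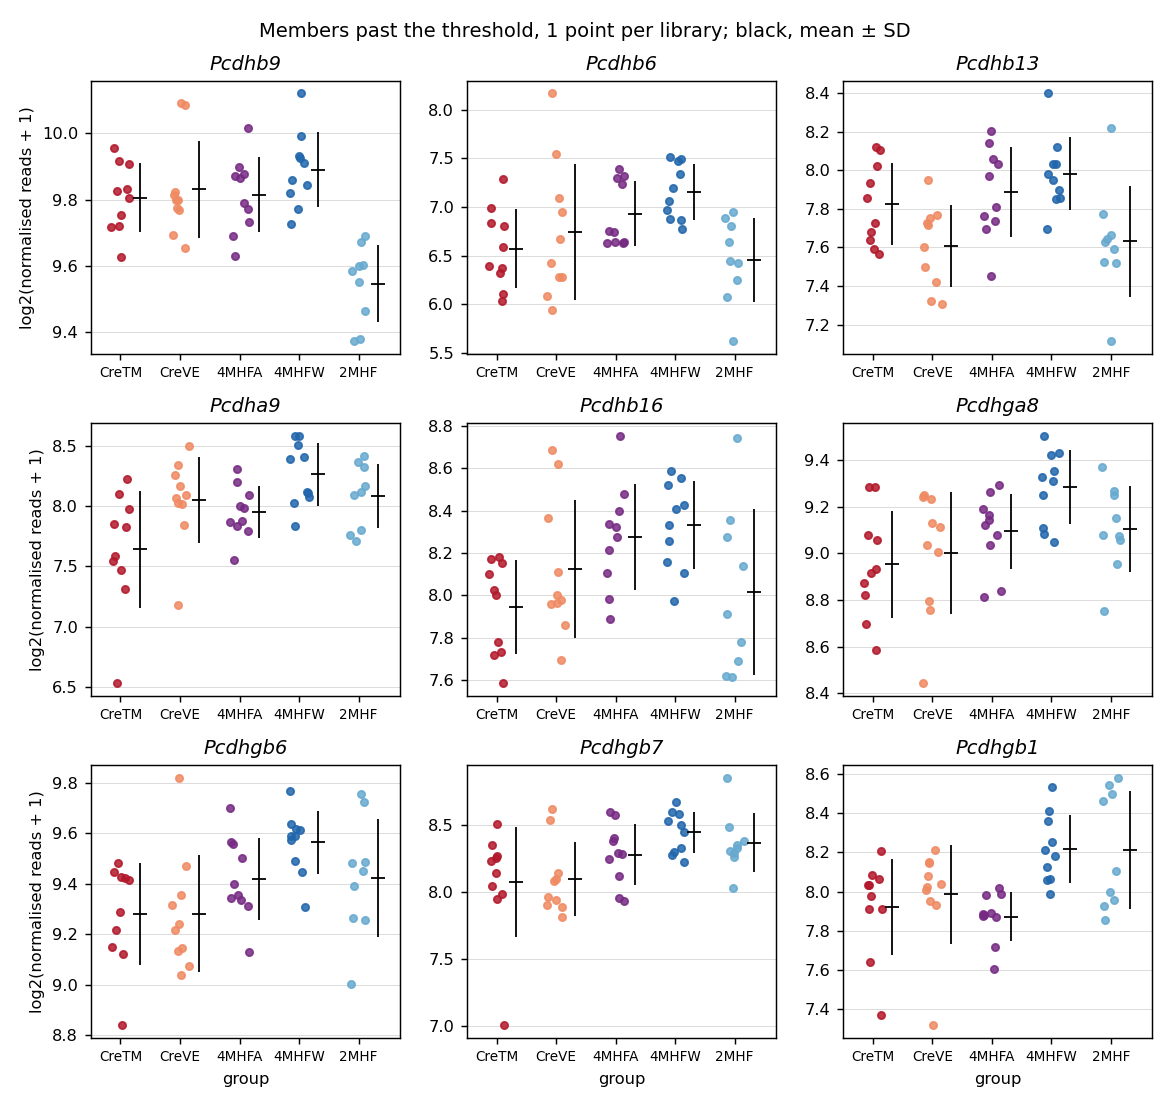
Levels of 9 genes past the threshold in at least 1 comparison, with 1 point per library in 5 groups and mean ± SD in black. For Pcdhb9 the 4MHFW libraries (9.73 to 10.12) lie above all 2MHF libraries (9.37 to 9.69), and Pcdha9, Pcdhb16, Pcdhga8 and Pcdhgb6 show CreTM below 4MHFW with ranges that overlap.

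The C-type genes passed in no comparison with all libraries, although the intervals leave room for small differences. Pcdhgc5 was at 12.12 ± 0.26 in CreTM, 12.20 ± 0.25 in CreVE, 12.12 ± 0.16 in the libraries labelled AKO, 12.21 ± 0.20 in 4MHFW and 12.42 ± 0.23 in 2MHF (SD). Pcdhgc3 was at 11.54 ± 0.13 in CreTM, 11.58 ± 0.15 in CreVE, 11.62 ± 0.15 in the libraries labelled AKO, 11.67 ± 0.12 in 4MHFW and 11.53 ± 0.11 in 2MHF. Pcdhac2 was at 10.71 ± 0.26 in CreTM, 10.70 ± 0.28 in CreVE, 10.71 ± 0.21 in the libraries labelled AKO, 10.75 ± 0.23 in 4MHFW and 10.98 ± 0.21 in 2MHF. The group ranges of the 3 genes overlapped. The 95% interval of the CreTM difference from 4MHFW was -0.24 to -0.02 for Pcdhgc3, -0.29 to 0.11 for Pcdhgc5 and -0.26 to 0.16 for Pcdhac2. The interval for Pcdhgc3 leaves out 0, but its adjusted p was 0.10, and it passed (0.034) without CreTM replicate 9, at -0.16. Pcdhac1 and Pcdhgc4 did not pass in any comparison either, with differences of -0.32 to 0.07 for Pcdhac1 and -0.09 to 0.05 for Pcdhgc4.

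Within groups, members of a cluster moved together weakly. After group means were subtracted, the mean correlation between libraries was 0.18 over 55 pairs of alpha genes, 0.19 over 231 pairs of beta genes and 0.18 over 231 pairs of gamma genes, beside 0.0008 over all pairs of genes tested. The value over all genes averages positive and negative pairs, which cancel, so it is no baseline for a gene family. Between clusters it was 0.05 for alpha with beta, 0.12 for alpha with gamma and 0.14 for beta with gamma. Pairs next to each other on the chromosome averaged 0.23 and other pairs of the same cluster 0.18. The libraries share depth and tissue composition in these values, and no test was made of them. The strongest pair within each cluster was Pcdhac1 with Pcdhac2 (r = 0.78) in alpha, Pcdhb8 with Pcdhb11 (r = 0.63) in beta and Pcdhga12 with Pcdhgc5 (r = 0.66) in gamma. The strongest pair of all joined C-type genes of different clusters, Pcdhac2 and Pcdhgc5, with r = 0.84 and Spearman's rho of 0.69, a pair singled out after its value was seen.

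The C-type genes split in how they followed the markers of cortical excitatory neurons across the 49 libraries, again with group means subtracted and as a description without a test. Pcdhac2 followed these markers with r = 0.84 (rho = 0.82) and Pcdhgc5 with r = 0.84 (rho = 0.75), while Pcdhgc3 ran against them with r = -0.50 (rho = -0.58). Leaving out the 2 libraries farthest from the median marker level, CreVE replicate 3 and CreTM replicate 9, gave 0.80 for Pcdhac2, 0.75 for Pcdhgc5 and -0.50 for Pcdhgc3. Pcdhgc4 had r = -0.63 with all libraries and -0.34 without the 2, and Pcdhac1 had 0.62 and 0.56. Of the alpha genes 7 of 11, of the beta genes 6 of 22 and of the gamma genes 12 of 22 had an r above 0, and without the 3 libraries that stand apart 10, 10 and 11. Pcdhac2 made up 48.8% of the alpha sum, and the median r over the 11 alpha genes was 0.32. The alpha sum followed the markers with r = 0.75 (rho = 0.76) and 0.71 without the 2 libraries. The beta sum ran against them with r = -0.46 (rho = -0.30), which fell to -0.05 once CreVE replicate 1 was left out as well. With olfactory bulb and mucosa markers the signs were turned, at r = -0.54 for the alpha and 0.45 for the beta sum, and at -0.40 and 0.25 without the 3 libraries that stand apart. With astrocyte markers r was 0.75 for Pcdhgc3, 0.44 for Pcdhgc4, -0.37 for Pcdhac1, -0.61 for Pcdhac2 and -0.52 for Pcdhgc5. Without the same 3 libraries Pcdhgc3 was at 0.71. These values came from mixed tissue, and the part of tissue composition in the differences between groups was not tested.

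**Figure D5:**
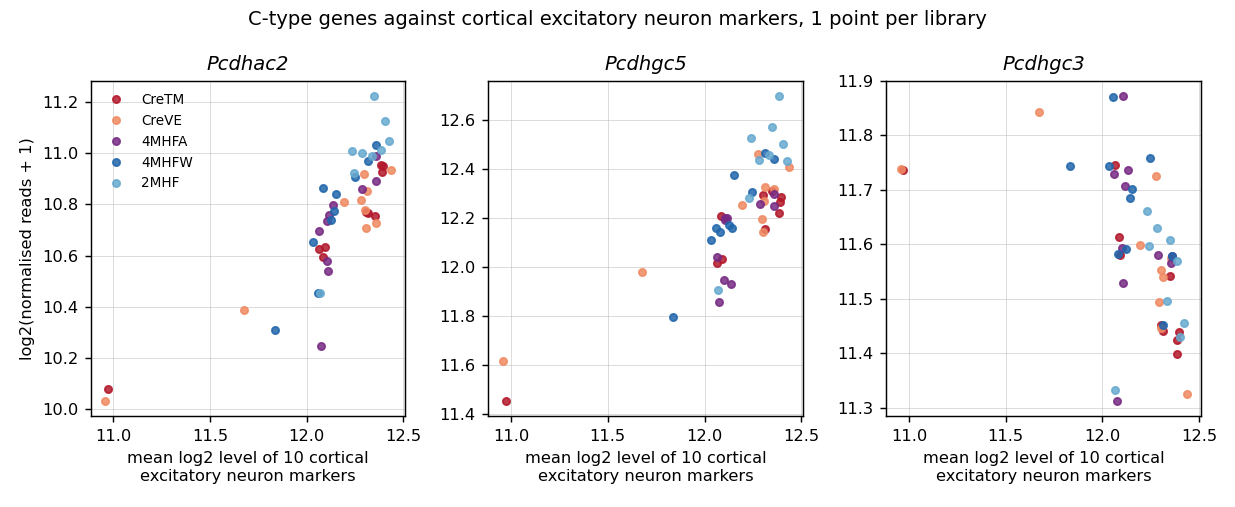
Levels of Pcdhac2, Pcdhgc5 and Pcdhgc3 (log2(normalised reads + 1)) against the mean log2 level of 10 markers of cortical excitatory neurons, with 1 point per library and colours for the 5 groups. Pcdhac2 and Pcdhgc5 are higher and Pcdhgc3 lower where the markers are higher, and CreVE replicate 3 and CreTM replicate 9 lie far to the left at marker levels of 10.96 and 10.97.

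Markers of other cell types moved with several of these comparisons. All 8 myelinating oligodendrocyte markers fell in CreTM over 4MHFW, with a median of -0.42, and all 8 in CreVE over 4MHFW, with a median of -0.62, while 2 of 8 fell in the libraries labelled AKO. The summed level of the myelinating oligodendrocyte markers was 16.4 to 17.4 in CreTM, 16.4 to 17.5 in CreVE, 16.99 to 17.49 in the libraries labelled AKO and 17.3 to 17.6 in 4MHFW. Of the endothelial and of the oligodendrocyte precursor markers, 2 of 6 each fell in CreTM and in CreVE over 4MHFW. Among all genes tested, 6.87% were called lower in CreTM, 3.59% in CreVE and 0.504% in the libraries labelled AKO. Markers of striatal projection neurons and of the olfactory bulb and mucosa varied widely between libraries and none passed. All 9 striatal markers had differences below 0 in CreTM (median -0.84) and in CreVE (median -0.79) over 4MHFW, with a summed level of 13.84 to 16.36 in CreTM, 13.78 to 16.07 in CreVE and 13.69 to 16.36 in 4MHFW. All 8 olfactory markers tested were below 0 as well, with a median of -0.87 in CreTM and -0.27 in CreVE, and a summed level of 11.59 to 14.64 in CreTM, 11.71 to 15.99 in CreVE and 11.81 to 14.38 in 4MHFW. In 4MHFW over 2MHF 5 of 7 microglial, 4 of 8 astrocyte and 3 of 6 endothelial markers rose, and 1 of 10 excitatory neuron markers fell. Among all genes tested, 4.54% were called higher and 4.14% lower there. Differences were above 0 for 7 of 8 olfactory markers (median 0.97) and 9 of 9 striatal markers (median 0.48), none of which passed. Excitatory neuron markers were below 0 in 8 of 10, with a median of -0.19. The summed microglial level was 13.997 to 14.197 in 4MHFW and 13.872 to 14.113 in 2MHF. For astrocytes it was 17.3 to 17.5 in 4MHFW, against 17.2 to 17.4 in 2MHF, and for endothelial cells 12.94 to 13.24 in 4MHFW, against 12.72 to 12.97 in 2MHF. Their part in the protocadherin differences was not tested.

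Genes known to control or partner the clustered protocadherins were counted in the same comparisons. Among 24 regulators of promoter choice and silencing, 2 rose and 2 fell in CreTM over 4MHFW, where 13% of all genes tested were called. Tet2, an enzyme that oxidises methylated cytosine, rose by 0.28 (SE 0.07) and Setdb1, a histone H3 lysine methyltransferase that silences the clusters in mouse neurons, by 0.14 (SE 0.04). Lrif1, a partner of the silencing protein SMCHD1, fell by 0.15 (SE 0.04) and Ctcf by 0.10 (SE 0.03). Setdb1 also rose in CreVE over 4MHFW, by 0.17 (SE 0.05), as 1 gene of 24, beside 6.17% of all genes. In 4MHFW over 2MHF, where 8.68% of all genes tested were called, Rad21, a cohesin subunit, rose by 0.18 (SE 0.04) and Tet2 fell by 0.26 (SE 0.08). None of the 24 passed in CreTM over CreVE or in the libraries labelled AKO. The median difference of the list lay between -0.06 and 0.03 in the 5 comparisons.

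Among 12 non-clustered protocadherins, which have their own genes elsewhere in the genome, 3 rose and 0 fell in CreTM over 4MHFW, beside 6.18% of all genes called higher and 6.87% lower: Pcdh15, a part of the tip links of hair cells, by 0.33 (SE 0.09), Pcdh8 by 0.28 (SE 0.06) and Pcdh19 by 0.21 (SE 0.07). None passed in any of the other 4 comparisons. The clustered genes called in that comparison were all lower and the non-clustered ones all higher. Over all 12 non-clustered genes, however, 7 differences were above 0 and 5 below, the lowest being -0.50, which did not pass. Of 22 partners and signalling genes, 1 rose and 1 fell in CreTM over 4MHFW, where 13% of all genes tested were called. Nlgn2, an adhesion protein of inhibitory synapses, rose by 0.15 (SE 0.05) and the small GTPase Rac1 fell by 0.09 (SE 0.03). In 4MHFW over 2MHF Nlgn2 alone passed and fell by 0.19 (SE 0.05), beside 8.68% of all genes called. Of 22 other cadherin-family and synaptic recognition genes, 21 were tested. Of these, 2 rose in CreTM and 1 in CreVE over 4MHFW, beside 6.18% and 2.58% of all genes called higher. The seven-pass cadherin Celsr3 rose by 0.37 (SE 0.07) in CreTM and by 0.30 (SE 0.08) in CreVE, and Cdh13 rose by 0.27 (SE 0.08) in CreTM. In 4MHFW over 2MHF 3 fell, beside 4.14% of all genes called lower: Clstn3 by 0.24 (SE 0.06), Cdh11 by 0.22 (SE 0.07) and Cdh10 by 0.18 (SE 0.05). The adjusted p (limma) of the regulators, protocadherins, partners and cadherin-family genes said to rise or fall lay between 0.0020 and 0.048.

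Genes that lie beside the clusters moved in both directions. Of 18 neighbours tested, 3 rose and 1 fell in CreTM over 4MHFW, beside 6.18% of all genes called higher and 6.87% lower. In CreVE over 4MHFW 2 rose and 1 fell, beside 2.58% of all genes called higher and 3.59% lower. Hars, the histidyl-tRNA synthetase, rose by 0.24 (SE 0.04) in CreTM and by 0.22 (SE 0.04) in CreVE. Zmat2 rose by 0.21 (SE 0.05) and Hdac3, a histone deacetylase, by 0.10 (SE 0.03) in CreTM, and Apbb3 by 0.18 (SE 0.04) in CreVE. Sra1 fell by 0.18 (SE 0.04) in CreTM and by 0.13 (SE 0.04) in CreVE. The median difference of the neighbours was 0.06 in CreTM and 0.07 in CreVE. Only Apbb3, which fell by 0.17 (SE 0.05), passed in 4MHFW over 2MHF, beside 4.14% of all genes called lower. None passed in the remaining 2 comparisons.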

How the data were processed

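Per the labels' protocols, the library kit was Illumina TruSeq Stranded mRNA. The deposited data are 1 table of log2 values with 24495 genes. The sources used here name no aligner, counter, build or normalization. Low values were whole multiples of 1 read per library (99.92% to 100.0% within 0.1 of a whole number, up to 200 reads), so the deposited log2 values are read counts divided by a size factor, plus 1. 1 value column matched no labelled sample and was not used, and 7 genes that were not whole reads were left out. No 2 libraries of the same group agreed within sampling noise (216 pairs), and pairs from different groups were not compared.

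Groups were compared with limma 3.58.1 (R 4.3.3, trend and robust shrinkage) on the log2 table, with each fit holding only the pair of groups in question, two-sided, with Benjamini-Hochberg adjustment over all genes tested at 0.05. Genes needed 10 normalised reads in at least the number of libraries of the smaller group. The unit being log2, limma-voom on recovered reads was the count alternative. Other alternatives were the filter, the pseudocount, the scaling, 1 model of all libraries, 5 of the 10 4MHFW libraries alone and leaving out each library. 4 of the 5 comparisons share the 4MHFW libraries. Correlations used values after subtraction of group means and cluster sums were not tested. Marker and pathway lists are given by counts and medians. The fit was tested on simulated data. Members and lists were chosen with earlier results of these data known. Named genes were the C-type genes, the highest and lowest of each cluster, every gene past the threshold or the 5 smallest p, and up to 3 passing genes of each list; Ctcf and Hdac3 were named after their values were seen. Positions come from RefSeq, and strands and exon bases from GENCODE M21 (GRCm38).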

Additional observations from a re-analysis of the deposited data

Results flagged for a closer look

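Of 175 sets of values screened (a gene or cluster sum in a group), 18 held a library whose gap to the nearest of the others was large for the range of its group, and chance gives about 1 in 20. In 2MHF, replicate 37 was the lowest in Pcdhac1 (6.52), Pcdhac2 (10.45) and Pcdhb21 (5.45), and its log2 summed level was the lowest for the alpha (11.43) and gamma (13.76) clusters. In CreTM, replicate 9 was the lowest in Pcdhac2 (10.08), Pcdhgc5 (11.45) and the log2 gamma sum (13.85). Replicate 18 was the lowest of CreTM in Pcdhb7 (7.77) and replicate 21 in Pcdhgb7 (7.003). In the libraries labelled AKO, replicate 6 was the lowest in Pcdha10 (6.30) and in the log2 gamma sum (13.69). In CreVE, replicate 4 was the lowest in Pcdha9 (7.18) and replicate 39 in Pcdhgb1 (7.32). In 4MHFW, replicate 22 was the highest in Pcdhac1 (7.97), replicate 14 the highest in Pcdhb20 (9.39), replicate 24 the lowest in Pcdhb4 (6.01) and replicate 13 the lowest in Pcdhgc5 (11.80).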

How the results depend on the processing

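All 54 alternatives of the 15 differences in cluster sums moved by less than 1 SD between libraries. Some of these differences are smaller than that SD, so this limit cannot show that they held. The log2 gamma sum, for one, averaged 14.10 (SD 0.08) in 4MHFW and 14.09 (SD 0.14) in 2MHF. In CreTM over 4MHFW (11 genes), 4 passed with 4MHFW replicates 11 to 15 alone, 2 with 21 to 25 alone, and 8 to 12 with 1 library left out. In CreVE over 4MHFW (4), 2 passed with no filter and with scaling by total reads, 0 and 0 with either of these sets of 4MHFW, 10 without replicates 1 and 3 of CreVE (chosen after seeing the data), and 2 to 6 with 1 library left out. The 2 came without CreVE replicate 4, 5, 10, 39, 40 or 41, or 4MHFW replicate 12, 14, 15, 21 or 25. In 4MHFA over 4MHFW (1), 0 passed with all 49 libraries in 1 model, without 4MHFA replicates 14 and 19, and with 4MHFW replicates 21 to 25 alone, and 0 to 1 with 1 library left out. In 4MHFW over 2MHF (3), 0 passed with 4MHFW replicates 21 to 25 alone, and 2 to 6 with 1 library left out. In CreTM over CreVE it was 0 to 0. The F test (12) called 19 without the 3 libraries that stand apart and 7 to 18 with 1 left out. The sets of 5 hold fewer samples, and for the rest the cause was not tested. Shares of all genes called are not given for these alternatives, so a change in count is not read as particular to the members.

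Replicate numbers did not pair samples: same-numbered libraries correlated at -0.21 to 0.087 (5 numbers, 4MHFA and 4MHFW) and at -0.042 and -0.001 (2 numbers, CreTM and 4MHFW). Number 21 of the 5 and number 15 of the 2 matched themselves best. The 1 number that CreVE and 4MHFW share correlated at 0.146, and 1 shared number allows no paired fit. The replicate block gave 0 genes in 4MHFA over 4MHFW and 0 in CreTM over 4MHFW, over the few libraries that share numbers. Under that block, Pcdhac1 (0.0747), Pcdhac2 (0.123) and Pcdhgc5 (0.0775) turned in 4MHFA over 4MHFW, and Pcdhac2 (0.0309), Pcdhgc4 (-0.275) and Pcdhgc5 (0.0269) in CreTM over 4MHFW.

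Of 199 alternatives of the 19 calls, 141 kept the call and 58 lost it. Signs turned in 18 of 546 alternatives, which covered in each comparison the genes past the threshold, the 5 smallest p and the C-type genes. All 18 were C-type genes that did not pass. Among the members not covered, some near 0 turned too, such as Pcdha3 (0.018) and Pcdha11 (0.052) in CreTM over 4MHFW without CreTM replicate 9, and so did Pcdhgc4 (-0.011) in 4MHFW over 2MHF without 2MHF replicate 37. With 4MHFW replicates 11 to 15 alone Pcdhac2 was 0.0469 (4MHFA), 0.0343 (CreVE) and 0.0428 (CreTM), and Pcdhgc5 0.0033 (CreVE). With 21 to 25 alone Pcdhgc4 was 0.0219 (CreVE) and -0.0227 (4MHFW over 2MHF). Without the libraries that stand apart Pcdhac2 was 0.0643 and Pcdhgc5 0.0849 in CreVE over 4MHFW, Pcdhac2 0.0207 and Pcdhgc4 -0.0211 in CreTM over 4MHFW, and Pcdhac2 -0.0436 in CreTM over CreVE, where limma-voom gave -0.0069.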
